A study of Homo sapiens with 4 samples.

Results

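The microRNAs numbered miR-6720 to miR-6895 entered the human catalogue late, as a block of short hairpins that mostly lie in introns. The count tables held 344 mature miRNA rows with these numbers, of 2366 human rows in all, and the 203 rows with at least 1 read summed over the 4 libraries are the members described here. They were chosen by that summed read count, and the other 141 rows of the block had 0 reads. At the edge of the rule, 53 members had exactly 1 read. No difference between knockdown and control entered the choice.

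The study lowered ERH, a partner protein of the Microprocessor, by CRISPR interference in K562-dCas9-KRAB cells, a human erythroleukaemia line that carries an inactive Cas9 joined to the KRAB repressor domain. Each of 2 guide RNAs against ERH was carried by its own doxycycline-inducible polyclonal line. The knockdown libraries came from cells given 0.05 µg/ml doxycycline and sampled on day 5, and the control libraries from the same lines without doxycycline, so each guide RNA gave 1 library per condition and each group held 2 libraries. All 4 cultures carried the dCas9-KRAB repressor and a guide RNA. An effect of doxycycline itself cannot be told apart from that of the knockdown in this design, and ERH mRNA was not analysed here.

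Most animal miRNAs are cut from their primary transcript by the Microprocessor, a complex of the nuclease DROSHA and the RNA-binding protein DGCR8, and then by DICER1. A mirtron takes another route: splicing releases the intron, debranching lets it fold into a hairpin, and DICER1 cuts that hairpin with no need for the Microprocessor. In a tailed mirtron the hairpin reaches only 1 end of the intron and the rest of the intron is a tail that nucleases trim. ERH is known for helping the Microprocessor with poorly shaped hairpins that lie near a good one, and the comparison asks how reads from hairpins of the intron-end kind stood when ERH was lowered.

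The sequences below show the feature that the block shares, an end at a splice site. They are the 4 intron-spanning hairpins with the most reads and, chosen after its values were seen, the hairpin of the most abundant member, all from RefSeq on GRCh38.p14. Capitals mark the first 2 and the last 2 bases of the GENCODE 29 intron where the hairpin contains them.
MIR6816: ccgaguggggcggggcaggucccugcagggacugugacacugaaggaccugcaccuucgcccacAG
MIR6857: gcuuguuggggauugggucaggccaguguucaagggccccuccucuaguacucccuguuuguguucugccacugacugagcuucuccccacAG
MIR6765: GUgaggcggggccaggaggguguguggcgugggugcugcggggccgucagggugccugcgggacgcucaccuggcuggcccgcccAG
MIR6789: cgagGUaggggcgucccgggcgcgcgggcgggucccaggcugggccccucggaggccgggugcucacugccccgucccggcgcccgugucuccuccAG
MIR6803: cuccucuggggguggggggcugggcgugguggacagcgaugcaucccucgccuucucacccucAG

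MIR6765 lies at chr14:105150778-105150864 on the minus strand and is the whole of an 87-base intron of JAG2, a Notch ligand, so it opens with the donor and closes with the acceptor letters of a splice site. MIR6816, at chr22:20114686-20114751 on the minus strand, covers all but the first 9 bases of a 75-base intron of TRMT2A, a tRNA methyltransferase. MIR6857, at chrX:53405673-53405765 on the minus strand, starts 5 bases into a 98-base intron of the cohesin subunit gene SMC1A. MIR6789, at chr19:2235829-2235926 on the minus strand, starts 4 bases before a 94-base intron of PLEKHJ1. MIR6803, at chr19:55245186-55245250 on the minus strand, starts 14 bases into a 79-base intron of PPP6R1, which encodes a regulatory subunit of protein phosphatase 6. All 5 end on the last base of their intron.

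The most abundant members are shown as mature sequences, with the seed in capitals (bases 2 to 8, which pair with target mRNAs). RefSeq entries were matched by name for 175 of the 203 members, which carried 1122 of the 1338 reads.
miR-6803-3p: uCCCUCGCcuucucacccucag
miR-6724-5p: cUGGGCCCgcggcgggcgugggg
miR-6777-3p: uCCACUCUccuggcccccag
miR-6799-3p: uGCCCUGCaugguguccccacag
miR-6797-3p: uGCAUGACccuucccuccccac
miR-6816-3p: gAAGGACCugcaccuucg
miR-6793-3p: uCCCCAACcccugcccgcag
The other 3 of the 10 most abundant members were miR-6747-3p, miR-6844 and miR-6842-3p. The seeds were almost all different: 167 distinct seeds covered the 175 members, and 8 seeds were each carried by a pair. The pair with the most reads was miR-6801-3p and miR-6810-3p, which share CCCCUGC and had 27 reads together. Outside the block, miR-6799-3p shares its seed with miR-3173-5p, which had 117 reads, and miR-6766-3p shares GAUUGUC with miR-219a-5p, an older miRNA. The miRNAs outside the block with that GAUUGUC seed had 3838 reads, more than the whole block.

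By position, the block was a set of intron 3′ ends, and only a minority came from short introns. RefSeq placed 157 hairpin loci of the block on the genome, and 144 of them (91.7%) ended exactly on the last base of an annotated intron. Among 1232 hairpins of other miRNAs, 51 (4.14%) did so. Only 12 of the 157 spanned a whole intron within 10 bases at both ends, 7 did so within 3 bases and 29 within 25 bases. A further 138 reached 1 end of an intron only, 3 lay inside an intron, 3 had no gene on their strand and 1 was exonic in some transcripts. Of the 144 hairpins at an intron 3′ end, 44 (30.6%) sat in an intron of at most 150 bases, with a median intron length of 305.5 bases and a range of 74 to 9210. The description of the block as short-intron hairpins thus held for a minority by this measure, while the position at an intron 3′ end held for most of it. The host was protein-coding for 136 of the 144.

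**Figure D1:**
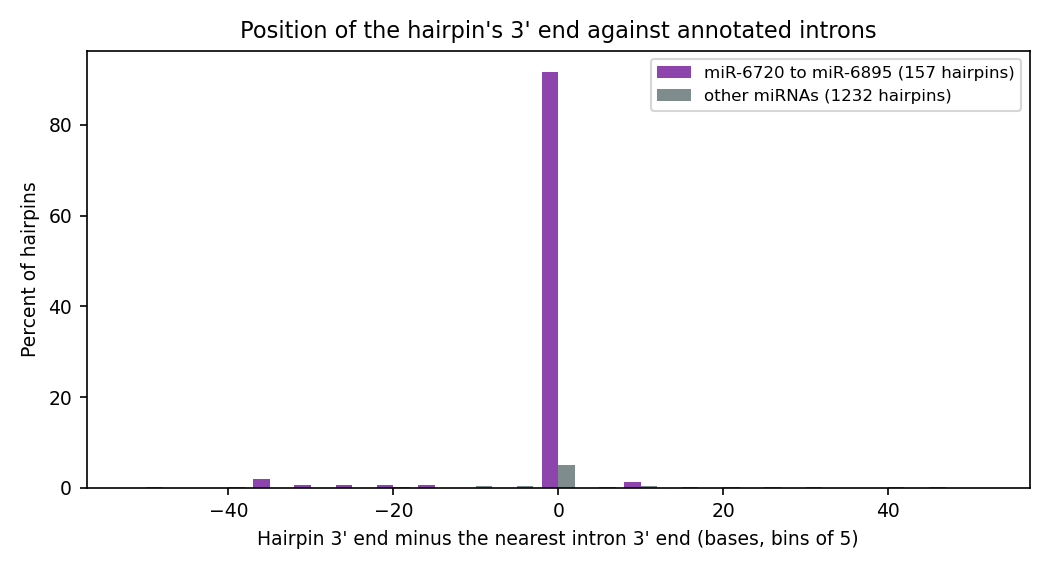
Distance in bases from the hairpin's 3′ end to the nearest annotated intron 3′ end (horizontal axis, 5-base bins) against the percent of hairpins (vertical axis), for 157 hairpins of miR-6720 to miR-6895 and 1232 hairpins of other miRNAs; hairpins beyond the plotted range are counted in the percentages. Of the block, 144 hairpins lie at a distance of 0, against 51 of the others.

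The mature sequences carry the same signature. The acceptor letters AG closed 116 of 150 3p rows with a sequence (77.3%, exact 95% interval 69.8 to 83.8) and 65 of 582 3p rows of other miRNAs (11.2%, 8.73 to 14.0). With the preceding C, CAG closed 66.0% against 7.22%. The donor letters GU opened only 12 of 145 5p rows (8.28%, 4.35 to 14.0), beside 30 of 563 (5.33%, 3.62 to 7.52) elsewhere. In the intron-spanning hairpins GU opened 4 of 10 5p rows and AG closed 7 of 11 3p rows. For 132 3p rows whose hairpin ends on an intron 3′ end, the mature end was the last intron base in 107 (81.1%), 1 to 3 bases before it in 16 and further back in 9. The hairpins were short and rich in G and C: their median length was 67 bases and median GC content 61.1%, against 81.5 bases and 50.7% for other miRNAs. The predicted folding energy per base had medians of -0.42 and -0.46 kcal/mol.

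The libraries held 1430434 to 2476700 human miRNA reads, with the control of guide RNA 1 the shallowest, and 46150 to 59192 reads of added spike-in RNAs. The erythroid miRNA miR-451a was at 24072 to 25243 counts per 1000000 human miRNA reads (CPM) and miR-486-5p at 5562 to 7578, while the liver, neuron, muscle and heart miRNAs checked were at most at 3.59. The 2 libraries within each group differed by more than counting error. A chi-square divided by its degrees of freedom was 4.62 between the knockdown libraries and 12.3 between the controls. Knockdown libraries were not compared with controls in this way. Of 464 miRNAs tested over the whole table with edgeR, 236 (50.9%) passed an adjusted p of 0.05, 119 of them higher and 117 lower in the knockdown. In bulk RNA, a smaller number of cells that make a miRNA and less of it per cell cannot be told apart, here and in all results that follow. Nothing in the labels says that the libraries of a group came from separate cultures of 1 line, so the p-values measure only the spread between the lines of the 2 guide RNAs, part of which may be technical.

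Members were rare in every library. The 203 rows had 1338 reads in all, 0.0157% of the human miRNA reads, with a median of 3 reads per member against 21 in the 1039 other rows with a read. Between 2 and 4 reads were found for 84 members, 5 to 9 for 30, 10 to 19 for 22 and 20 or more for 14. No member reached 100 reads, while 342 other miRNAs did. The 10 most abundant members carried 493 reads, 36.8% of the total.

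More members were detected in the deeper libraries. In the guide RNA 1 line, 126 members had a read in the knockdown and 88 in the control, and in the guide RNA 2 line 122 had one in each. Thinned to the 1430434 reads of the shallowest library, the expected numbers were 101 and 95.1 in the knockdown and 88 and 89.7 in the control. Both knockdown libraries thus stayed above both controls, and other miRNAs gave 816 and 789 against 765 and 734 on the same footing. Reads in all 4 libraries were found for 41 members, and 65 members were seen in a single library.

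Reads in the knockdown only were found for 52 members and reads in the control only for 31, at most 9 and 8 reads each. These counts were taken at unequal depth, with the control of guide RNA 1 the shallowest library. The share of other miRNAs with these 2 patterns was not computed, so the counts do not set the block apart. Fewer members were seen in both libraries of 1 condition and in neither of the other. In both knockdown libraries and no control there were 12 members, the largest being miR-6800-3p with 6 and 3 reads. In both control libraries and no knockdown there were 6, the largest being miR-6758-3p with 5 and 3 reads. All of these 12 and 6 members had 2 to 9 reads, a range that held 114 members. Among 263 other miRNAs in that range, 14.8% had the first pattern and 4.18% the second, beside 10.5% and 5.26% of the 114, and the difference was not tested. A count of 0 still allows up to 3 reads, which is 1.35 and 1.25 CPM in the knockdown libraries of guide RNAs 1 and 2 and 2.10 and 1.21 in the controls, counting error only. The 12 had 40 reads together and the 6 had 23.

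Among members abundant enough to test, none was called as changed. Only 6 members passed the filter on low counts (about 10 reads in at least 2 libraries), and edgeR's quasi-likelihood test called 0 of the 6 at an adjusted p of 0.05, against 50.9% of all 464 tested miRNAs. Among the 114 other tested miRNAs with no more reads than the most abundant member, 28.9% were called. None of the 6 had an unadjusted p under 0.05, the lowest being 0.273 in edgeR. DESeq2 also called 0, against 31.5% of all tested miRNAs, with adjusted p-values for 4 of them and none assigned to miR-6799-3p and miR-6844. The standard errors of the log2 fold changes were 0.33 to 0.46 for these members and had a median of 0.18 over all tested miRNAs. The called changes among those 114 similarly rare miRNAs had a median size of 1.39 and a smallest size of 0.84 on the log2 scale. The 6 had a median log2 fold change of -0.19, beside 0.06 over the whole table.

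miR-6803-3p, from the PPP6R1 intron shown above, was the most abundant member. It had 36 and 29 reads in the knockdown libraries of guide RNAs 1 and 2 and 8 and 24 in the controls, which is 16.2, 12.1, 5.59 and 9.69 CPM. Both knockdown libraries were above both controls on that scale, with the low value in the control of guide RNA 1. The fitted log2 fold change was 0.34 ± 0.33 (SE, n = 2 against 2, edgeR adjusted p = 0.42). Without the control of guide RNA 1 it was 0.057 and without that of guide RNA 2 0.90. That fit rescales libraries by TMM, a trimmed mean over all miRNAs. Scaled by library size alone the same miRNA gave 0.78 (edgeR adjusted p = 0.028), and scaled by the spike-ins 1.0 (edgeR adjusted p = 0.049), so its call depends on the scale. No other of the 6 was called on either of these scales, which called 67.7% and 41.8% of all tested miRNAs.

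miR-6724-5p was the tested member with a RefSeq position but no host intron. RefSeq places its hairpins at chr21:8249505-8249596 and chr21:8432530-8432621 on the plus strand, with no gene on that strand and a GC content of 83.7%. It had 18 and 34 reads in the knockdown and 15 and 19 in the control, or 8.08, 14.2, 10.5 and 7.67 CPM. The highest value was the knockdown of guide RNA 2, the groups overlapped, and the log2 fold change was -0.08 ± 0.35 (SE, edgeR adjusted p = 0.86).

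miR-6777-3p comes from the end of an 89-base intron of SREBF1, the gene of a sterol-regulated transcription factor (hairpin chr17:17813480-17813545, minus strand). It had 12 and 16 reads in the knockdown and 13 and 10 in the control, with a log2 fold change of -0.40 ± 0.42 (SE, edgeR adjusted p = 0.45). Its control libraries, at 9.09 and 4.04 CPM, lay on either side of the knockdown values of 5.39 and 6.68. miR-6747-3p had 14 and 17 reads in the knockdown and 3 and 21 in the control, and -0.31 ± 0.46 (SE, edgeR adjusted p = 0.60). The control of guide RNA 1 was low at 2.10 CPM and that of guide RNA 2 the highest of the 4 at 8.48, and without the latter the log2 fold change was 1.23.

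miR-6799-3p lies at the end of a 9210-base intron of AP2A1, a clathrin adaptor gene, the longest intron among the block's hairpins (hairpin chr19:49791866-49791934, plus strand). With 13 and 15 reads in the knockdown and 7 and 9 in the control, it stood at 5.84 and 6.27 against 4.89 and 3.63 CPM, groups that do not overlap on that scale. Its log2 fold change in the fit was 0.12 ± 0.41 (SE, edgeR adjusted p = 0.84). miR-6844, the only member with no arm in its name, had 11 and 12 reads in the knockdown and 9 and 11 in the control, or 4.94, 5.01, 6.29 and 4.44 CPM. The groups overlapped, with the control of guide RNA 1 highest, and the log2 fold change was -0.48 ± 0.40 (SE, edgeR adjusted p = 0.37).

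**Figure D2:**
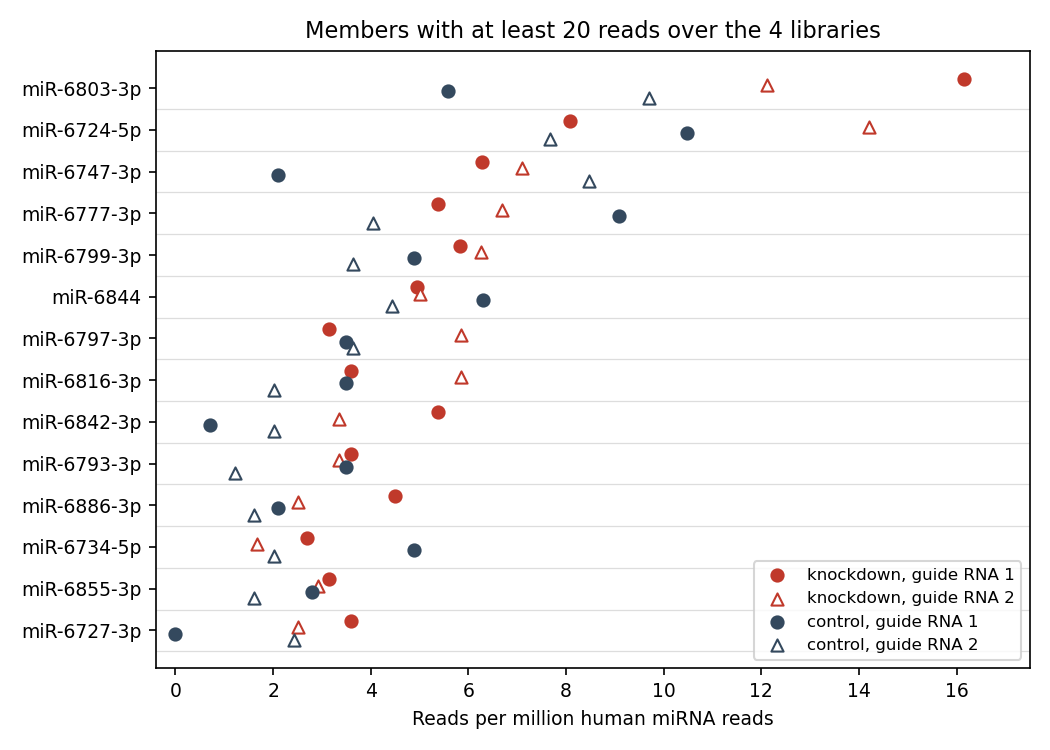
CPM, counts per 1000000 human miRNA reads (horizontal axis, linear), for each of the 14 members with at least 20 reads, 1 point per library; red is knockdown, dark blue control, filled circles guide RNA 1 and open triangles guide RNA 2. The highest value is 16.2 CPM, and both knockdown points lie to the right of both control points for miR-6803-3p, miR-6799-3p, miR-6816-3p, miR-6842-3p, miR-6886-3p, miR-6855-3p and miR-6727-3p but not for the others.

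Most of the well-counted members below the filter had more raw knockdown than control reads, in small numbers and at unequal depth. miR-6797-3p, from an intron of the ribosomal protein gene RPS19, had 7 and 14 reads in the knockdown and 5 and 9 in the control. miR-6816-3p, from the TRMT2A intron shown above, had 8 and 14 against 5 and 5. miR-6842-3p had 12 and 8 against 1 and 5. miR-6793-3p, from an intron of the dynamin gene DNM2, had 8 and 8 against 5 and 3.
Among the rest with 20 or more reads, miR-6886-3p had 10 and 6 against 3 and 4. miR-6855-3p, from an intron of the deubiquitinase gene USP20, had 7 and 7 against 4 and 4. miR-6727-3p, from a 91-base intron of the Integrator subunit gene INTS11, had 8 and 6 against 0 and 6. miR-6734-5p, from a 90-base intron of the fatty acid elongase gene ELOVL1, ran the other way with 6 and 4 against 7 and 5. The raw knockdown count was at or above the control count within both guide RNAs in all of these 8 members but miR-6734-5p, while the control of guide RNA 1 was also the shallowest library. In CPM, miR-6797-3p was also below the control within guide RNA 1 (ratio 0.90). There miR-6816-3p and miR-6793-3p were at 1.03 each, and the remaining members were further above 1. Of other miRNAs with 10 or more reads, 68.6% were higher within both guide RNAs in CPM. Among those with no more reads than the most abundant member it was 62.6%. The values of single members here were not rescaled by TMM.

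Over the 36 members with 10 or more reads, the direction in CPM was mixed. The knockdown was higher within both guide RNAs for 14, lower within both for 3, and split for 19. Both knockdown libraries lay above both controls for 13 (36.1%) and below for 2. Of the 641 other miRNAs with 10 or more reads, 68.6% were higher and 13.1% lower within both guide RNAs, and 63.5% and 11.2% had no overlap between groups. Among the 297 of those with no more reads than the most abundant member, 62.6% were higher and 8.75% lower within both guide RNAs, and 53.5% and 5.72% had no overlap. The block thus held a larger share of members without a common direction than these miRNAs did, but the sets were not matched in read number. Of the 36 members 22 had only 10 to 19 reads, against 113 of the 297. On the TMM scale the 36 split into 6 higher, 8 lower and 22 mixed, with 4 higher and 7 lower without overlap. The 297 gave 46.1% higher and 20.5% lower, with 40.7% and 15.2% without overlap. Per spike-in read the members split into 19, 2 and 15, with 14 higher and 1 lower without overlap. The 297 gave 74.4% and 4.71%, with 62.3% and 3.03% without overlap. The difference between the block and other miRNAs was not tested.

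Summed over all members, CPM values were somewhat higher in the knockdown, but the direction depended on the scale. The block had 397 and 412 reads in the knockdown and 210 and 319 in the control, or 178 (exact Poisson 95% interval 161 to 197), 172 (156 to 190), 147 (128 to 168) and 129 (115 to 144) CPM. The group values were 175 ± 4.32 and 138 ± 12.7 (SD, n = 2 each). The ratio of knockdown to control was 1.21 within guide RNA 1 (95% counting interval 1.02 to 1.44) and 1.34 within guide RNA 2 (1.15 to 1.55). On the TMM scale the same reads gave 0.906 (0.764 to 1.08) and 0.977 (0.842 to 1.13), and per spike-in read 1.47 (1.24 to 1.75) and 1.57 (1.35 to 1.82). The scales also moved the table as a whole: over the 464 tested miRNAs the middle log2 fold change lay at 0.06 with TMM, 0.50 with library size and 0.75 with the spike-ins. The block's summed reads moved with it, with mean log2 ratios of -0.088, 0.35 and 0.60. With 1 library per guide RNA and condition, no test was made within a guide RNA.

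**Figure D3:**
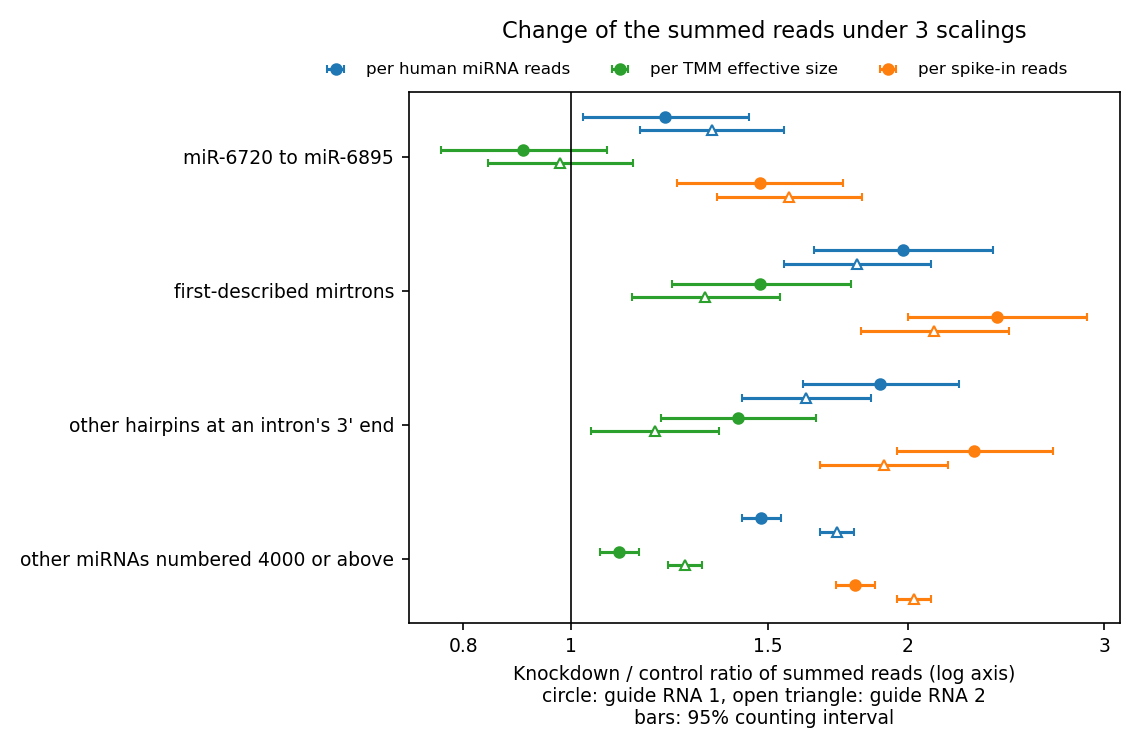
Knockdown over control ratio of summed reads (horizontal log axis) within guide RNA 1 (circles) and guide RNA 2 (open triangles), with 95% counting intervals, for 4 sets of miRNAs under 3 scalings shown in color; the line marks a ratio of 1. For miR-6720 to miR-6895 the TMM ratios of 0.906 and 0.977 lie below 1 and the other 4 ratios above it. The comparison sets were not made exclusive of each other.

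Within the block, the kinds of locus had overlapping intervals. In CPM, members at an intron 3′ end (153 rows) gave ratios of 1.25 and 1.40 within guide RNAs 1 and 2. Those in introns of at most 150 bases (46 rows) gave 1.33 (0.974 to 1.82) and 1.42 (1.11 to 1.84), and those in longer introns (107 rows) 1.19 (0.897 to 1.58) and 1.37 (1.06 to 1.79). The 12 rows from intron-spanning hairpins had 16 and 33 reads in the knockdown and 10 and 16 in the control, with ratios of 1.03 (0.438 to 2.53) and 2.13 (1.14 to 4.15).

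Reads came mainly from the 3p arm, the side that ends at the splice acceptor. Of 167 hairpins with a row for each arm, 132 had a read, with more 3p than 5p reads in 98, more 5p in 25 and equal numbers in 9. Among the 65 with at least 5 reads, 54 leaned to 3p and 10 to 5p. miR-6803 was the extreme, with 97 3p reads and 0 5p reads, followed by miR-6747 with 55 and 2, miR-6777 with 51 and 8, and miR-6799 with 44 and 1. miR-6797 had 35 and 1, miR-6816 32 and 11, miR-6842 26 and 4, miR-6793 24 and 2, and miR-6886 23 and 10. In miR-6855 (22 and 6), miR-6727 (20 and 0), miR-6810 (19 and 2), miR-6741 (18 and 9), miR-6820 (18 and 3) and miR-6846 (17 and 3) the 3p arm also led. miR-6734 was the exception among hairpins with at least 20 reads, with 22 5p reads and 0 3p reads, although its hairpin also ends on the last base of its intron.

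**Figure D4:**
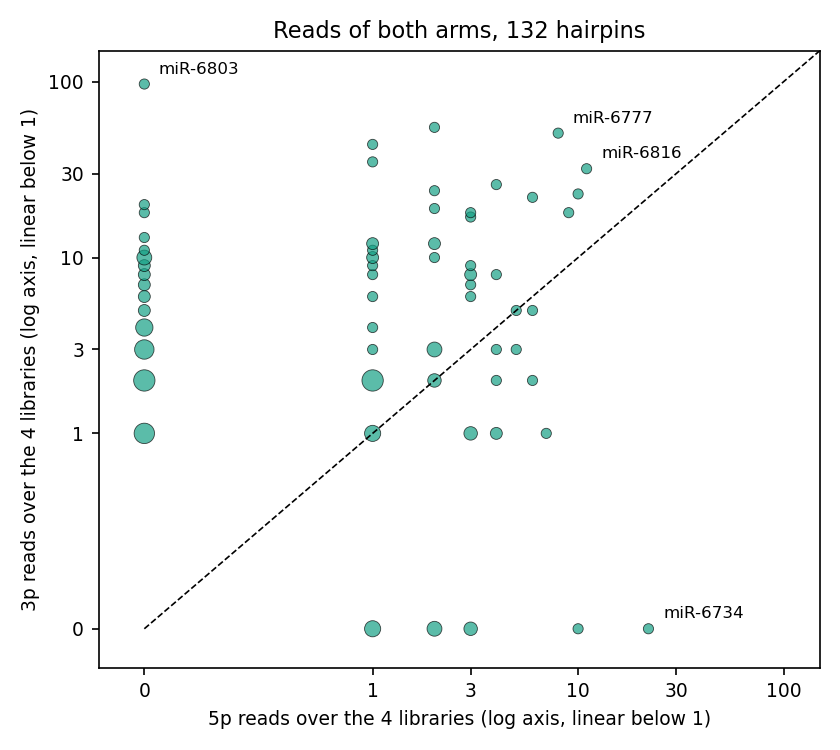
Reads summed over the 4 libraries on the 5p arm (horizontal axis) and the 3p arm (vertical axis), both on log axes that are linear below 1, for the 132 hairpins with a read and a row for both arms; larger circles hold more hairpins and the dashed line marks equal arms. Of these hairpins 98 lie above the line and 25 below it.

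The arm balance needs no scaling between libraries and moved little with the knockdown. The 3p arm carried 76.9% of the arm-named reads in the knockdown of guide RNA 1 (exact binomial 95% interval 72.4 to 81.1) and 74.0% in that of guide RNA 2 (69.4 to 78.2). The controls had 72.6% (65.9 to 78.7) and 73.7% (68.4 to 78.5). The group values were 75.5 ± 2.08% and 73.2 ± 0.753% (SD, n = 2 each), a difference of 2.30 percentage points that lies within the counting intervals. In all other miRNAs the 3p share was 48.5% to 50.8%, a pool of all kinds of hairpin. Among mirtrons described earlier, miR-1226, miR-1227 and miR-1229 also had more 3p than 5p reads in every library, while miR-877 had more 5p reads. By arm, the summed CPM ratios were 1.31 and 1.35 for the 119 3p members and 1.04 and 1.33 for the 83 5p members. The most abundant 5p member, miR-6724-5p with 86 reads and no host intron, had ratios of 0.771 and 1.85. The 5p ratios without miR-6724-5p were not computed.

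Per read of the human mirtrons that were described first, fewer block reads were counted in the knockdown than in the control. Those mirtrons, a list from miR-877 and miR-1224 to miR-1238, had 481 and 472 reads in the knockdown and 156 and 271 in the control over 15 rows. There were 0.825 and 0.873 block reads per read of those mirtrons in the knockdown and 1.35 and 1.18 in the control, a ratio that no scaling affects. The group means were 0.849 ± 0.0336 and 1.26 ± 0.120 (SD, n = 2 each), without overlap. Without miR-877, the most abundant of that list, the values were 2.27 and 2.16 against 3.04 and 2.68. Against 54 rows of other miRNAs whose hairpin ends on an intron 3′ end, a list added after the data were seen, they were 0.649 and 0.712 against 1.01 and 0.864. The mirtrons described first were not removed from that list, so both comparisons can rest on the same reads. Against the other miRNAs numbered 4000 or above (256 rows) the values were 0.0506 and 0.0492 against 0.0617 and 0.0636. Against miR-484, whose capped hairpin is made without Microprocessor cleavage, summed with miR-320e, the values overlapped, at 0.0744 and 0.0785 against 0.0812 and 0.0702. The difference in change between these lists was not tested.

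Of those first mirtrons, 5 passed the filter and 2 were called, in the same edgeR fit over 464 miRNAs. miR-877-3p and miR-877-5p, both arms of the mirtron in ABCF1, rose by 0.82 ± 0.21 (SE, edgeR adjusted p = 0.0049) and 0.51 ± 0.15 (SE, edgeR adjusted p = 0.0092) on the log2 scale. miR-1226-3p at 0.21 ± 0.16, miR-1227-3p at 0.57 ± 0.37 and miR-1229-3p at 1.41 ± 0.58 (11 and 11 reads against 3 and 2) were not called, nor was miR-484 at -0.11 ± 0.06.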

How the data were processed

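The authors deposited 1 table of raw read counts per mature miRNA for each of 4 small-RNA libraries. Per the labels' protocols, RNA was extracted with TRIzol and small RNA was gel purified. The aligner, trimming, treatment of reads that match several hairpins, annotation and genome build were not given in the sources used here. Each table had 2368 rows, 2 of which were spike-in RNAs left out of the library totals and used only for scaling. The counts were tested over all 2366 human rows with edgeR 4.0.16 (quasi-likelihood test, filterByExpr with a minimum count of 10 and a minimum total of 15, TMM, no block, Benjamini-Hochberg adjustment over 464 rows) in R 4.3.3, with DESeq2 1.42.0 as an alternative. The fit was also run on simulated counts in which all miRNAs and both groups shared 1 spread. Rare miRNAs were not looked at separately in that run. Summed reads were not tested. Their intervals are exact Poisson, conditional binomial or Clopper-Pearson at 95% and cover counting error only, since the reads carry no molecular identifiers in these tables. Thinned detection is a hypergeometric expectation. Hairpin and mature sequences and positions came from RefSeq (GRCh38.p14), introns from GENCODE 29 (GRCh38), and folding energies from RNAfold 2.7.2. Introns of at most 150 bases were called short.

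Groups came from the sample titles. The guide RNA number pairs libraries because each guide RNA had its own line, and the deviations of same-numbered libraries from their group means had a correlation of -0.109 over 464 miRNAs. Named members are those tested, the 10 with the most reads, and both arms of hairpins with at least 20 reads, with the tested members of the comparison lists. The members and lists were chosen with earlier results of these data known. The alternatives tried were other scalings, filters, tools, pairings, read minimums, intron tolerances and left-out libraries.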

Additional observations from a re-analysis of the deposited data

Results flagged for a closer look

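In 4 of the 6 tested members, the knockdown stood on opposite sides of the control in the lines of the 2 guide RNAs in CPM, counts per 1000000 human miRNA reads. With 1 library per guide RNA and condition, the difference between guide RNAs was not tested. Among members with 10 or more reads, 19 of 36 were split in this way. Of other miRNAs with 10 or more reads, 117 of 641 were split. Among those with no more reads than the most abundant member, 85 of 297 were split. These sets were not matched to the 6 in read number, and the difference in shares was not tested. The ratio of knockdown to control was 0.771 (95% counting interval 0.367 to 1.64) within guide RNA 1 and 1.85 (1.03 to 3.44) within guide RNA 2 for miR-6724-5p, the member with no host gene on its strand. For miR-6747-3p it was 3.0 (0.836 to 16.3) and 0.838 (0.415 to 1.67), with only 3 reads behind the control of guide RNA 1. For miR-6777-3p, from the SREBF1 intron, it was 0.593 (0.247 to 1.41) and 1.66 (0.706 to 4.08). For miR-6844 it was 0.785 (0.296 to 2.14) and 1.13 (0.456 to 2.82). Of these 8 intervals, 7 include a ratio of 1.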

How the results depend on the processing

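The number of tested members called, 0 of 6, stayed at 0 with guide RNA as a replicate block (230 of 464 miRNAs called in all), with DESeq2, and with the crossed pairing of the guide RNAs, which was chosen after seeing the data (0 members, 241 miRNAs). It ranged from 0 to 0 when each library was left out, with 9 to 11 members tested and 117 to 195 miRNAs called. The block changed the call of none of the 6. The number was 1 with library size alone and 1 with spike-in scaling, in both cases miR-6803-3p (0.78 and 1.0). It was 2 of 203 with no filter on low counts, which called 19.1% of 1242 miRNAs: miR-6758-3p at -5.43 and miR-6846-3p at -2.30 (edgeR adjusted p = 0.0085 and 0.016), with 8 and 17 reads; the former had 0 reads in the knockdown, so its fitted value is no bound. Log2 fold changes turned positive with library size alone for miR-6724-5p (0.36), miR-6747-3p (0.13) and miR-6777-3p (0.035), and with the spike-ins for these (0.60, 0.37 and 0.24) and miR-6844 (0.17). Over left-out libraries they ran from 0.057 to 0.90 for miR-6803-3p, -0.75 to -0.31 for miR-6844, -0.58 to 0.27 for miR-6724-5p, -0.81 to 1.23 for miR-6747-3p, -1.0 to 0.10 for miR-6777-3p and -0.11 to 0.25 for miR-6799-3p. The mean log2 ratio of the summed reads, 0.35, was -0.088 on the TMM scale, 0.60 per spike-in read and 0.57 over intron-spanning hairpins, and 0.25 to 0.44 over left-out libraries. The log2 ratio of members detected, 0.24, was 0.14 with every library thinned to the smallest total and, at unequal depth, 0.69 at a minimum of 3 reads and 1.19 at 10. Hairpins spanning an intron numbered 7 within 3 bases and 29 within 25, against 12. AG closed 63.6% of 3p rows from intron-spanning hairpins, against 77.3%. Apart from the changes that follow from fewer rows or a looser limit, the cause was not tested. Read number limits every single member: none had 100 reads.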
